A study of Mus musculus with 12 samples.

Results

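Wt1, Pax8, Lhx1 and Pax2 encode 4 transcription factors of the early nephron, and their levels were followed through 3 structures of the mouse kidney at stage E14.5. The genes were taken by symbol: every probe set annotated to exactly 1 of these symbols was used, which gave 1 probe set per gene and 4 of the 8251 genes that the arrays measured with such a probe set. The probe sets were 93856_at for Wt1, 96504_at for Pax8, 92961_at for Lhx1 and 99809_at for Pax2, so no gene had a second probe set to compare with the first. All samples came from wild-type Swiss Webster embryos of unknown sex at Theiler stage 22. Structures were dissected by their shape, their RNA went through 2 rounds of T7 amplification, and the product was hybridised to Affymetrix arrays. The 12 arrays formed 4 groups of 3: renal vesicles, each sample a pool of 20; S-shaped bodies in pools of 20; single S-shaped bodies, each amplified from 1 structure; and collecting duct, unpooled. No group carried a mutation or a treatment, and the labels do not say whether the samples of a group came from different embryos, so the p-values measure the spread between these samples, which may be technical.

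The nephron forms from mesenchymal cells that cap the tips of the branching ureteric bud. These cells aggregate, turn into the epithelial renal vesicle and lengthen into the S-shaped body. Its proximal end becomes the podocytes of the glomerulus and its more distal parts become the tubule. The ureteric bud itself becomes the collecting duct. Wt1 encodes a zinc finger protein that the mesenchyme needs for survival and that is retained in podocytes. Pax2 and Pax8 encode paired box proteins that act together at the start of the nephric lineage, and Lhx1 encodes a LIM homeodomain protein needed for the renal vesicle to be patterned into an S-shaped body.

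Levels are given as log2 of the quantile-normalised intensity plus a pseudocount of 7.22, so a value at or below 0 after normalisation has the level 2.85. A probe set was read as above background where its deposited intensity exceeded the size of that array's 5th percentile, which was negative on every array. On these terms Wt1 was above background on 11 of 12 arrays, Pax8 on 10, Lhx1 on 7 and Pax2 on 0. The deposited arrays differed in overall brightness, with median intensities of 14.3 to 20.4 for renal vesicles, 37.2 to 42.5 for pooled S-shaped bodies, 47.6 to 61.9 for duct and 3.48 to 9.48 for single S-shaped bodies. The single S-shaped bodies also had the highest ratio of the 3' to the 5' actin control, 75.8 to 91.4, where renal vesicles ranged from 36.1 to 43.3 and collecting duct from 27.7 to 89.4. Correlation between arrays of a group was 0.91 to 0.94 in the single S-shaped bodies and 0.95 to 0.98 in the other groups. The small number of arrays limits the precision of every value.

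**Figure D1:**
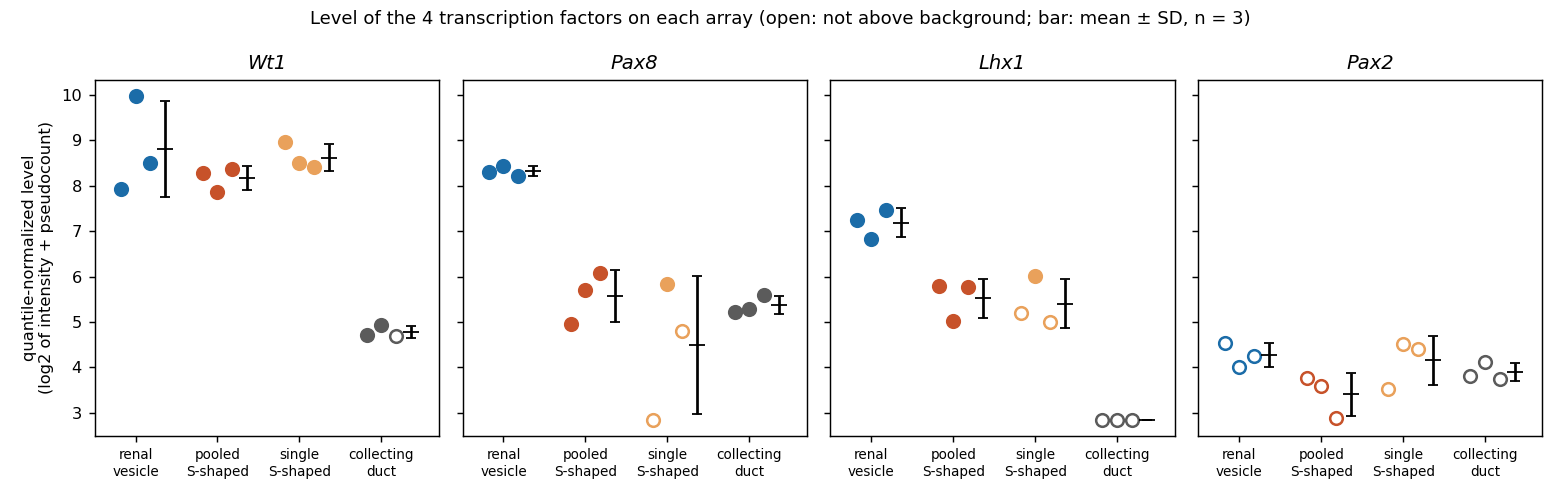
Level of Wt1, Pax8, Lhx1 and Pax2 on each of the 12 arrays (y axis: log2 of normalised intensity plus 7.22; x axis: the 4 groups), with open points for arrays on which the gene was not above background and bars for the mean ± SD of 3 arrays. Wt1 is high in every group but collecting duct, and Pax8 is high in renal vesicles alone. Lhx1 is highest in renal vesicles, lower in both sets of S-shaped bodies and at the floor of 2.85 in collecting duct. Every Pax2 point is open.

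Wt1 was high in the renal vesicle and in both sets of S-shaped bodies and low in the collecting duct. Its level was 7.94, 9.98 and 8.50 in renal vesicle replicates 2, 3 and 4, and 8.28, 7.87 and 8.37 in pooled S-shaped body replicates 1, 2 and 3. Single S-shaped body replicates 3, 4 and 5 stood at 8.96, 8.50 and 8.41, and collecting duct replicates 1, 2 and 3 at 4.71, 4.93 and 4.69. No collecting duct array reached the lowest array of another group, while the renal vesicle arrays overlapped those of both sets of S-shaped bodies. In deposited units, Wt1 lay 14.7 to 15.3 times above the background level in pooled S-shaped bodies, and 0.918 to 1.18 times in collecting duct, where 2 of 3 arrays were above it.

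The renal vesicles had the highest mean level of Wt1, 8.81 ± 1.06 (SD, n = 3), followed by the single S-shaped bodies at 8.62 ± 0.30, the pooled S-shaped bodies at 8.17 ± 0.26 and the collecting duct at 4.78 ± 0.13. Wt1 exceeded the collecting duct by 4.03 ± 0.41 (log2 change ± SE) in renal vesicles, 16.3-fold on this scale, with an adjusted p of 4.42e-05 in limma. The fold is on the scale of intensity plus pseudocount, which understates changes of dim genes. The change was 3.44 without renal vesicle replicate 3, whose Wt1 level was the highest of all arrays. Pooled S-shaped bodies exceeded the duct by 3.40 ± 0.41 (adjusted p = 8.12e-05) and single S-shaped bodies by 3.85 ± 0.26 (adjusted p = 2.57e-05).

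The neighbours at the top of that order could not be separated. From renal vesicle to pooled S-shaped body, Wt1 differed by -0.63 ± 0.41, with a 95% confidence interval of -1.54 to 0.27 (adjusted p = 0.263), and by -0.043 without renal vesicle replicate 3. Single against pooled S-shaped bodies gave 0.45 ± 0.22, with an interval of -0.05 to 0.95 (adjusted p = 0.329), although the arrays of these groups did not overlap. Single S-shaped bodies against renal vesicles gave -0.18 ± 0.45, with an interval of -1.20 to 0.84 (adjusted p = 0.800), and 0.41 without renal vesicle replicate 3. Each of these intervals spans 0.

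Renal vesicle replicate 3 differed from replicates 2 and 4 in more than Wt1. The mean level of the 10 measured podocyte precursor genes was 7.14 there, against 5.87 and 6.45 in replicates 2 and 4. The 15 genes of the ureteric bud and collecting duct averaged 5.55 there, against 4.19 and 4.45, and the 14 stromal genes 6.21, against 4.64 and 5.36. In each of these lists replicate 4 lay between replicates 2 and 3. Replicate 3 was not the highest for endothelial genes, at 5.66 against 5.69 in replicate 2. It was not the highest for early nephron genes, at 6.51 against 6.88, or nephron progenitor genes, at 6.37 against 6.84. The part of any of these genes in the level of Wt1 on that array was not tested. In structures cut from tissue, more cells of a type and more RNA per cell cannot be told apart.

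The stretches of genome just before the start sites of Pax8 and Lhx1 are shown first because both genes, whose levels follow, fell from renal vesicle to S-shaped body. They are the 250 bases before each start from RefSeq on the mouse build GRCm38, read 5′ to 3′ on the strand of the gene, at chr2:24475600-24475849 for Pax8 and chr11:84525535-84525784 for Lhx1, both on the minus strand. Capitals mark every match to the motifs searched.
Pax8: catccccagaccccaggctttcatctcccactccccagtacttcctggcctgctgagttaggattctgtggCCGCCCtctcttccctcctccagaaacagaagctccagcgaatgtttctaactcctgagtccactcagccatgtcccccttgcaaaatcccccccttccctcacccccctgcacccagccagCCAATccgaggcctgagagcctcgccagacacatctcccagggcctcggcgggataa
Lhx1: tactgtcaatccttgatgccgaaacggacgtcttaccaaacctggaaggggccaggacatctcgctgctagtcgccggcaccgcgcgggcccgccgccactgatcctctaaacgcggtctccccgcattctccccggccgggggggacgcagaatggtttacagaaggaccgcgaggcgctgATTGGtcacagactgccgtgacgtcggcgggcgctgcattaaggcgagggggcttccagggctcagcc

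A CCAAT box stood 57 bases before the start of Pax8 and another, on the opposite strand, 68 bases before the start of Lhx1. Each distance counts from the match's first base as printed. CCAAT occurred on either strand in 33.9% of the 32851 windows of this length. Pax8 also held 1 match to the GC box GGGCGG, on the opposite strand 179 bases before the start, as did 32.7% of windows on either strand. The other 6 motifs, searched on both strands with overlaps allowed, were GCGGGGGCG (an EGR and WT1 type site, in 2.57% of windows), TAATTA (a homeodomain core, 4.84%), TGACGTCA (1.55%), GTGGGAA (an RBPJ site, 5.42%), CTTTGAT (a TCF and LEF site, 3.21%) and TATAAA (12.4%). None of these letters occurred in either window, which says nothing on whether such factors bind elsewhere. The Lhx1 window held 26 CpG and 64.8% G and C bases and the Pax8 window 6 CpG and 60.4%, against medians of 6 and 52.4% over all windows. A match describes the letters and not a site in use.

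Pax8 was high in renal vesicles and low in the 3 other groups. Renal vesicle replicates 2, 3 and 4 read 8.30, 8.44 and 8.23. Pooled S-shaped body replicates 1, 2 and 3 read 4.95, 5.70 and 6.08, and collecting duct replicates 1, 2 and 3 read 5.22, 5.29 and 5.60. Single S-shaped body replicates 3, 4 and 5 read 2.85, 5.85 and 4.80, and only replicate 4 of them was above background. The lowest renal vesicle array thus stood above every other array, and the 3 remaining groups overlapped each other.

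In order, the mean level of Pax8 was 8.32 ± 0.11 (SD, n = 3) in renal vesicles, then 5.58 ± 0.58 in pooled S-shaped bodies. Collecting duct followed at 5.37 ± 0.20, and single S-shaped bodies came last at 4.50 ± 1.52. Renal vesicles exceeded collecting duct by 2.95 ± 0.28 (log2 change ± SE, adjusted p = 2.33e-05). Pax8 fell from the renal vesicle to the pooled S-shaped body, with a change of -2.74 ± 0.28 (adjusted p = 4.10e-05), which is 6.70-fold. It was lower in single S-shaped bodies than in renal vesicles as well, with a change of -3.82 ± 0.65 (adjusted p = 0.00310). That last value was -2.996 without single S-shaped body replicate 3, where Pax8 was at the floor, and -4.49 without replicate 4.

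Among the 3 low groups no difference in Pax8 passed the test. Pooled S-shaped bodies against collecting duct gave 0.21 ± 0.28, with an interval of -0.40 to 0.82 (adjusted p = 0.597), and -0.046 without pooled S-shaped body replicate 3. Single against pooled S-shaped bodies gave -1.08 ± 0.72 (adjusted p = 0.475), and single S-shaped bodies against collecting duct -0.87 ± 0.69, with an interval of -2.44 to 0.70 (adjusted p = 0.369). Without single S-shaped body replicate 3 these became -0.25 and -0.045, and without replicate 4 they became -1.75 and -1.54, and no call was gained. Pax8 was above background on all 3 collecting duct arrays, at 1.61 to 1.99 times the background level, and on all 3 pooled S-shaped body arrays, at 1.27 to 2.87 times.

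Lhx1 was high in renal vesicles, intermediate in S-shaped bodies and not above background in collecting duct. Its level was 7.25, 6.84 and 7.47 in renal vesicle replicates 2, 3 and 4, and 5.79, 5.03 and 5.77 in pooled S-shaped body replicates 1, 2 and 3. Single S-shaped body replicates 3, 4 and 5 read 5.19, 6.01 and 4.996, of which only replicate 4 was above background. The 3 collecting duct arrays had deposited intensities of -7.36, -9.12 and -0.606, and all sat at the floor of 2.85 after normalisation. Renal vesicles overlapped no other group, and the single S-shaped bodies overlapped the pooled ones.

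In order, the mean level of Lhx1 was 7.19 ± 0.32 (SD, n = 3) for renal vesicles, 5.53 ± 0.43 for pooled and 5.40 ± 0.54 for single S-shaped bodies, with only a bound in collecting duct. Against the background level of the duct arrays, Lhx1 was at least 5.59-fold higher in the renal vesicle samples (adjusted p = 1.86e-06) and at least 1.77-fold higher in pooled S-shaped bodies (adjusted p = 3.28e-05). In single S-shaped bodies the same calculation gave 1.62-fold (adjusted p = 0.00152), which is not a lower bound. Only 1 of 3 arrays was above background there, and replicates 3 and 5 read 0.911 and 0.999 times their background level. These bounds set the mean of the brighter group against the lowest level that counted as above background on each duct array, or the gene's own level there where that was higher. The adjusted p-values are those of the fitted changes from the floor in limma, and the bounds themselves were not tested.

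Lhx1 fell from the renal vesicle to the S-shaped body. The change was -1.66 ± 0.28 in the pooled S-shaped bodies (log2 change ± SE, adjusted p = 0.00105), which is 3.16-fold, and -1.79 ± 0.37 in the single ones (adjusted p = 0.00787). On the deposited scale, without normalisation, the pooled value was -0.60 and did not pass the test (adjusted p = 0.124). Single and pooled S-shaped bodies gave -0.13 ± 0.40, with an interval of -1.05 to 0.79 (adjusted p = 0.901).

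Pax2 was below background on all 12 arrays, so these arrays give no order of its levels. Its deposited intensity was at most 0.888 times the background level of the array, in renal vesicle replicate 2. The level was 4.55, 4.02 and 4.25 in renal vesicle replicates 2, 3 and 4, 3.77, 3.58 and 2.88 in pooled S-shaped body replicates 1, 2 and 3, 3.81, 4.12 and 3.75 in collecting duct replicates 1, 2 and 3, and 3.53, 4.53 and 4.40 in single S-shaped body replicates 3, 4 and 5. The renal vesicle arrays lay above the pooled S-shaped body arrays without overlap, with an unadjusted p of 0.0215 and an adjusted p of 0.0566 in limma. No fold is given, because both groups were under background. The other 5 comparisons had adjusted p-values of 0.269 to 0.870. A gene that reads below background on this probe set may still be transcribed, and no other probe set of Pax2 was on the array.

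**Figure D2:**
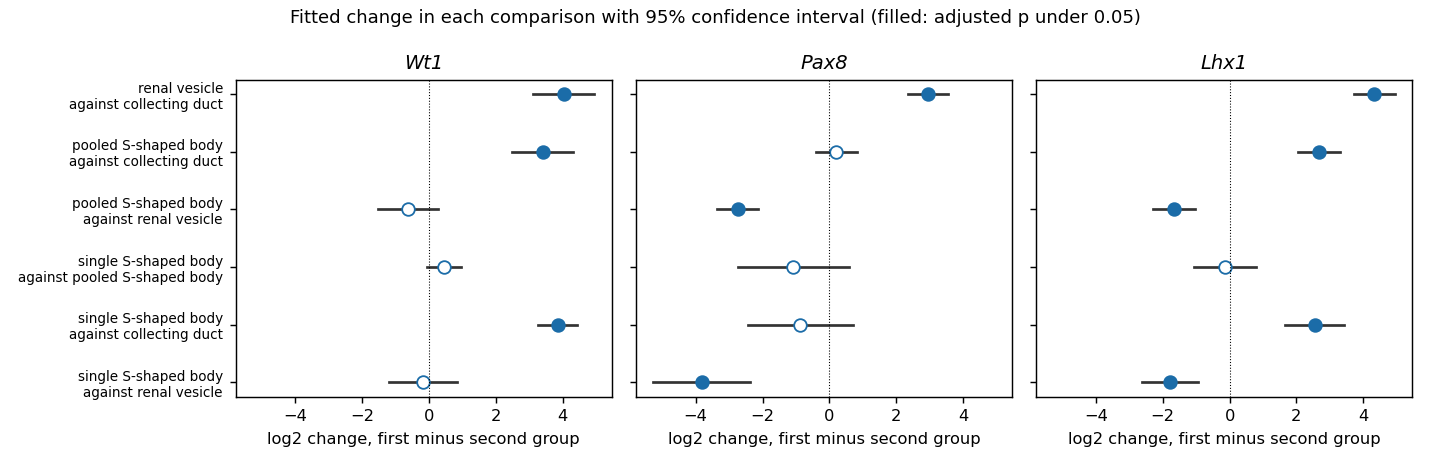
Fitted log2 change of Wt1, Pax8 and Lhx1 (x axis: first minus second group) in the 6 comparisons (y axis), with 95% confidence intervals and filled points where the adjusted p was under 0.05. All 3 measured genes exceed the collecting duct in renal vesicles, Pax8 and Lhx1 lie left of 0 in both comparisons of S-shaped bodies with renal vesicles, and the interval of Wt1 there spans 0. The points of Lhx1 against collecting duct follow the pseudocount and stand for bounds, except that no bound holds for single S-shaped bodies. Pax2, under background on every array, is not shown.

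Many probe sets passed the test in these comparisons, so the counts for the 4 genes are read against that background. In renal vesicles against collecting duct, 3 of 4 were called, all higher, and 23.9% of the 9316 probe sets tested were called. In pooled S-shaped bodies against collecting duct, 2 of 4 were called against 38.2%, and in pooled S-shaped bodies against renal vesicles 2 of 4, both lower, against 36.7%. Single S-shaped bodies gave 2 of 4 called against collecting duct, where 33.8% of probe sets were called, and 2 of 4 against renal vesicles, where 27.1% were called. Single against pooled S-shaped bodies gave 0 of 4 by limma, also at an unadjusted p under 0.05, with 0.397% of probe sets called and 0.247% called higher. The arrays of the compared groups did not overlap for 3, 2, 3, 1, 2 and 2 of the 4 genes in the order renal vesicle against duct, pooled against duct, pooled against vesicle, single against pooled, single against duct and single against vesicle. Over all probe sets tested the shares without overlap were 39.5%, 52.2%, 47.4%, 24.9%, 48.4% and 44.5%. The comparisons share the arrays of a group, so their values are given side by side and not as repeats of each other.

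A call for Pax8 and none for Wt1 between renal vesicle and pooled S-shaped body does not show that the genes differ, so the difference between them was compared within arrays. Within an array, the difference Wt1 minus Pax8 was 0.48 ± 0.97 (SD, n = 3) in renal vesicles and 2.60 ± 0.64 among the pooled S-shaped bodies, on the log2 scale. This change of 2.11 had an exact two-sided permutation p of 0.1, the smallest that 3 against 3 allows, and 0.164 after Benjamini-Hochberg adjustment over 36 tests. The same difference changed by 3.64 from renal vesicles to single S-shaped bodies, with the same exact p of 0.1 and adjusted value of 0.164. Pax8 minus Lhx1 changed by -1.09 from renal vesicle to pooled S-shaped body (exact p = 0.1, adjusted 0.164) and Wt1 minus Lhx1 by 1.03 (exact p = 0.4, adjusted 0.45). No such difference could reach 0.05 in this design, and none is called. A difference between probe sets carries their own brightness, so only its change between groups is read.

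Normalisation sets the zero point of every change above. On the deposited scale the median change of all probe sets tested was -1.39 in renal vesicles against collecting duct, -0.46 in pooled S-shaped bodies against collecting duct and 0.94 in pooled S-shaped bodies against renal vesicles. Relative to that median, the change from renal vesicle to pooled S-shaped body was -2.70 for Pax8, -1.55 for Lhx1 and -0.51 for Wt1, and the change from collecting duct to renal vesicle was 4.14 for Wt1 and 2.98 for Pax8. Lhx1, at the floor in duct, has only its bound there. For single S-shaped bodies the median change was -2.20 against pooled S-shaped bodies, -2.56 against collecting duct and -1.06 against renal vesicles. Relative to it, Wt1 was 3.55 higher than in duct, and Pax8 and Lhx1 changed by -3.24 and -1.69 from renal vesicles. The share of calls that were higher moved with the scale as well. It was 51.4% normalised and 3.23% as deposited in renal vesicles against duct, 47.7% and 24.7% in pooled S-shaped bodies against duct, and 47.7% and 93.9% in pooled S-shaped bodies against renal vesicles. For single S-shaped bodies it was 62.2% and 0.252% against pooled ones, 47.2% and 2.40% against duct and 46.2% and 4.99% against renal vesicles.

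Early nephron genes, the listed genes of renal vesicle and early tubule, were mostly higher in renal vesicles than in either neighbour. Of 17 listed early nephron genes 12 were measured and 10 tested. In renal vesicles against collecting duct 8 were higher and 0 lower, with a median change of 3.02, or 2.11 with genes under background at their bound, against -0.02 over all probe sets tested, of which 12.3% were called higher. Hey1, a Notch-responsive repressor, was higher by 5.88 ± 0.32 (log2 change ± SE), and Papss2, which makes the sulfate donor for glycans, by 3.66 ± 0.31. Dll1, a Notch ligand, was at least 6.27-fold higher. On the deposited scale 6 were higher and 1 lower in this comparison, with a median of 3.09 relative to that of all probe sets. From renal vesicle to pooled S-shaped body 7 of the 10 were lower and 1 higher, with a median of -1.19 against -0.03 over all probe sets, where 19.2% of probe sets were called lower. As deposited, without normalisation, 4 were lower and 2 higher, with a median of -1.11 relative to that of all probe sets. Wnt4, which turns mesenchyme into epithelium, was at least 7.76-fold lower, Papss2 at least 14.6-fold and Dll1 at least 6.44-fold. Cdh4, a cadherin, was the 1 member that rose, by 2.49 ± 0.26; it is named after its value was seen. Fgf8 and Pou3f3 were under background on every array and were not tested.

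Nephron progenitor genes, which mark the mesenchyme that feeds the vesicle, were higher in renal vesicles in a similar number. Of 14 listed, 11 were measured and 9 tested, with 6 higher and 0 lower in renal vesicles against collecting duct (median 2.32, or 2.05 with bounds) and 0 higher and 6 lower from renal vesicle to pooled S-shaped body (median -1.18, or -1.003 with bounds). Over all probe sets tested, 12.3% were called higher in the first comparison and 19.2% lower in the second. As deposited, 4 were higher and 2 lower in the first comparison, with a relative median of 2.54. In the second comparison 1 was higher and 2 lower as deposited, with a relative median of -1.43. Uncx, a homeobox gene, was at least 21.9-fold higher in renal vesicles than in duct and fell by 4.98 ± 0.34 into the pooled S-shaped body. Hoxa11, a homeobox gene of the metanephric mesenchyme, was at least 10.3-fold higher in renal vesicles, and Ncam1, a cell adhesion protein of condensed mesenchyme, was higher by 3.57 ± 0.22. Gdnf, the ligand that draws out the ureteric bud, fell by 1.88 ± 0.26 into the S-shaped body and Crym was at least 1.53-fold lower there. Eya1, the partner of the sine oculis type homeobox proteins, was above background in every group and passed the test in neither comparison, at -0.16 ± 0.19 and 0.22 ± 0.19.

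Of 36 other kidney transcription factors 24 were measured and 18 tested. In renal vesicles 10 were higher and 2 lower than in collecting duct, with a median of 1.84, or 0.88 with bounds. Over all probe sets tested there, 12.3% were called higher and 11.6% lower. The forkhead gene Foxc2, active in podocyte precursors, was at least 54.0-fold higher, and Uncx and Hey1 followed with the values above. As deposited, 8 were higher and 7 lower in renal vesicles against duct, with a relative median of 2.34. Into the pooled S-shaped body 3 were higher and 8 lower, with a median of -0.20, or -0.11 with bounds, where 17.5% of all probe sets tested were called higher and 19.2% lower, while on the deposited scale the counts turned to 10 higher and 2 lower, with a relative median of -0.03. Tcf21, a helix-loop-helix factor of podocytes and stroma, rose by 2.67 ± 0.62, and Gata3, a zinc finger factor of the duct lineage, by 2.51 ± 0.35.

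Genes reported elsewhere as targets of the 4 factors were mostly higher in renal vesicles than in duct and split between vesicle and S-shaped body. Of 20 listed, 12 were measured and 8 tested. In renal vesicles 7 were higher than in duct, with 1 lower, and a median of 2.30 (2.11 with bounds). Over all probe sets tested there, 12.3% were called higher and 11.6% lower. Gas1, a membrane protein reported downstream of Wt1 in progenitors, was higher by 4.11 ± 0.15, and Sfrp2, a secreted Wnt modulator, by 3.44 ± 0.17. Pooled S-shaped bodies had 3 higher and 4 lower than renal vesicles, with a median of -0.80, where 17.5% of all probe sets were called higher and 19.2% lower. Wnt4 and Dll1 fell and Gata3 rose, with the values above. These genes also stand in other lists, so the counts of the lists are not independent of each other. As deposited, 4 were higher and 4 lower in pooled S-shaped bodies against renal vesicles. In renal vesicles against duct the deposited scale gave 4 higher and 1 lower. Podxl and Ret were under background on every array.

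Cofactors and other binding partners of these proteins showed no common direction. All 14 measured of 17 listed were tested. In renal vesicles against duct 1 was higher and 2 lower, with a median of -0.05, where 12.3% of all probe sets were called higher and 11.6% lower: Lmo4, a LIM-only protein that competes for the cofactor Ldb1, differed by -2.59 ± 0.18, Ssbp2, a partner of the Ldb cofactors, by -0.82 ± 0.24, and Lmo2 was higher by 1.44 ± 0.39. The call for Lmo2 was lost without renal vesicle replicate 3, which left 0 higher. Between renal vesicle and pooled S-shaped body 3 were higher and 5 lower, with a median of -0.10, against 17.5% called higher and 19.2% called lower over all probe sets. As deposited, 0 were higher and 11 lower in the first comparison and 7 higher and 0 lower in the second, with relative medians of -0.06 and 0.06. Lmo2, which is also a factor of endothelium and blood, rose by 3.41 ± 0.39 and Ldb2 by 2.30 ± 0.36, while Lmo1 was at least 2.15-fold lower. Ldb1, the cofactor that Lhx1 binds, passed in neither comparison, at -0.13 ± 0.34 and -0.08 ± 0.34.

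The other Pax and LIM homeobox genes were mostly dim. Of 7 other Pax genes 6 were measured and 5 tested. Pax4, known from the endocrine pancreas, was not dim and was above background on every array. Its group means ran from 6.66 (renal vesicle) through 7.55 (duct) and 7.62 (pooled S-shaped body) to 8.12 (single S-shaped body). It differed by -0.89 ± 0.24 between renal vesicles and duct and rose by 0.97 ± 0.24 into the pooled S-shaped body. Pax4 was the 1 member called in either comparison. The share of all probe sets called was 23.9% for the first comparison and 36.7% for the second. Of 11 other LIM homeobox genes 7 were measured, of which 2 could be tested and 0 were called, also at an unadjusted p under 0.05 in limma. In each group, between 0 and 1 of these 7 were above background on an array.

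**Figure D3:**
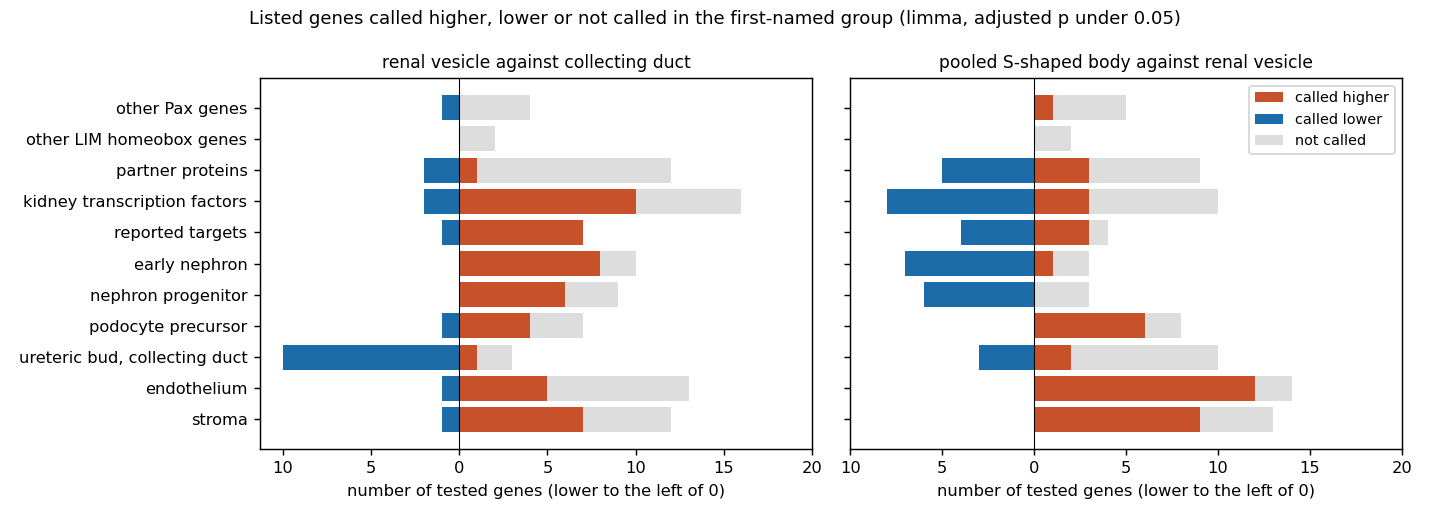
Number of tested genes of 11 lists called higher (orange, right of 0), lower (blue, left of 0) or not called (grey) in renal vesicles against collecting duct (left) and pooled S-shaped bodies against renal vesicles (right). Early nephron genes count 8 higher in the left panel and 7 lower in the right panel, and endothelial genes 12 higher in the right panel.

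Marker genes of other cell types moved with these comparisons too. Of 14 measured endothelial genes 1 to 2 were above background on a collecting duct array, 5 to 9 on a renal vesicle array, 14 on each pooled S-shaped body array and 13 on each single S-shaped body array. Their summed normalised intensity was 109 to 185 for duct, 1562 to 3236 for renal vesicles, 7647 to 9186 for pooled and 6962 to 9539 for single S-shaped bodies. From renal vesicle to pooled S-shaped body 12 of 14 rose and 0 fell, with a median of 2.97: Sox18 by 4.47 ± 0.38, Tie1 by 4.23 ± 0.59, and Flt1, a VEGF receptor, at least 13.2-fold. Of 14 stromal genes 2 to 4 were above background on a duct array, 7 to 13 on a renal vesicle array, 13 on each pooled S-shaped body array and 10 to 13 on a single one. Their summed intensity was 376 to 512, 437 to 1938, 4747 to 6500 and 6442 to 8026 in the same order, and 9 of 13 tested rose from renal vesicle to pooled S-shaped body and 0 fell, among them Col1a2 by 5.09 ± 0.97, Acta2 by 5.03 ± 0.39 and Postn by 3.48 ± 0.26. Over all probe sets tested in pooled S-shaped bodies against renal vesicles, 17.5% were called higher and 19.2% lower. Sox18 and Postn were also above background on every collecting duct array, with mean levels of 5.91 and 8.47 there.

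Against the duct, renal vesicles had 5 of 14 endothelial genes higher and 1 lower, and 7 of 13 stromal genes higher and 1 lower. Over all probe sets tested, 12.3% were called higher and 11.6% lower. The median was 0.99 for endothelial genes, or 0.03 with bounds, and 2.33 for stromal genes, or 0.48 with bounds. As deposited, 4 endothelial genes were higher and 3 lower, and 7 stromal genes were higher and 4 lower. Cldn5, a tight junction protein, was at least 46.0-fold higher, Eng was higher by 4.44 ± 0.60 and Cdh5 was at least 2.65-fold higher. Sox18 was the 1 lower endothelial gene, at -2.06 ± 0.38. The other 8 were not called, among them Flt1, Icam2 and Ets1, which were under background on every renal vesicle array. Of the stromal genes, Cxcl12 was at least 14.0-fold and Meis1 at least 2.88-fold higher, and Col1a1 was higher by 3.19 ± 0.50. Postn was the 1 lower stromal gene, at -2.90 ± 0.26. The part of endothelial and stromal RNA in the changes of Wt1, Pax8 and Lhx1 was not tested.

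Podocyte genes were highest in the S-shaped bodies, whose proximal end holds the podocyte precursors that keep Wt1. Of 16 listed, 10 were measured and 8 tested. In pooled S-shaped bodies against renal vesicles 6 rose and 0 fell, with a median of 1.19: Synpo, a podocyte actin-binding protein, by 3.16 ± 0.67, Ptpro, a podocyte membrane phosphatase, by 2.57 ± 0.79, and Tcf21 as above. In renal vesicles against duct 4 were higher and 1 lower, with Ptpro at least 18.2-fold higher and Tcf21 higher by 3.53 ± 0.62. Without renal vesicle replicate 3 the count of higher genes was 3. Over all probe sets tested, 17.5% were called higher in the first comparison, and 12.3% higher and 11.6% lower in the second. As deposited, 7 were higher and 0 lower in the first comparison, and 3 higher and 2 lower in the second. The mean level of the list was 5.87 to 7.14 for renal vesicles, 7.61 to 7.86 for pooled and 7.71 to 8.18 for single S-shaped bodies, and 4.65 to 4.96 for duct. Lmx1b and Podxl were under background on every array.

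Most of the tested genes of the ureteric bud and collecting duct marked the duct samples. In renal vesicles against duct 10 of 13 tested were lower and 1 higher, with a median of -3.24. Over all probe sets tested there, 11.6% were called lower and 12.3% higher. Krt19 was at least 109-fold lower and Cldn4 at least 42.5-fold lower, and Krt8 differed by -6.82 ± 0.85. Wnt11 was the 1 gene higher in renal vesicles (adjusted p = 0.0169 in limma), with 2 of 3 arrays above background there. Wnt7b, Wnt11 and Calb1 were under background on every duct array, and Ret and Aqp2 on every array. Of the 15 measured, 10 were above background on each duct array, 6 to 9 on a renal vesicle array and 5 to 9 on a pooled S-shaped body array. Their summed intensity was 10326 to 11308 for duct, 398 to 1325 for renal vesicles and 807 to 1485 for pooled S-shaped bodies. From renal vesicle to pooled S-shaped body 2 of 13 tested were higher and 3 lower, with a median of -0.22, or 0 with bounds. Over all probe sets tested there, 17.5% were called higher and 19.2% lower. As deposited, 4 were higher and 1 lower. Krt7 rose by 4.24 ± 0.86 and Gata3 by 2.51 ± 0.35, while Epcam, the largest fall, changed by -2.83 ± 0.47. The part of duct RNA in the levels of Pax8 in S-shaped bodies was not tested.

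**Figure D4:**
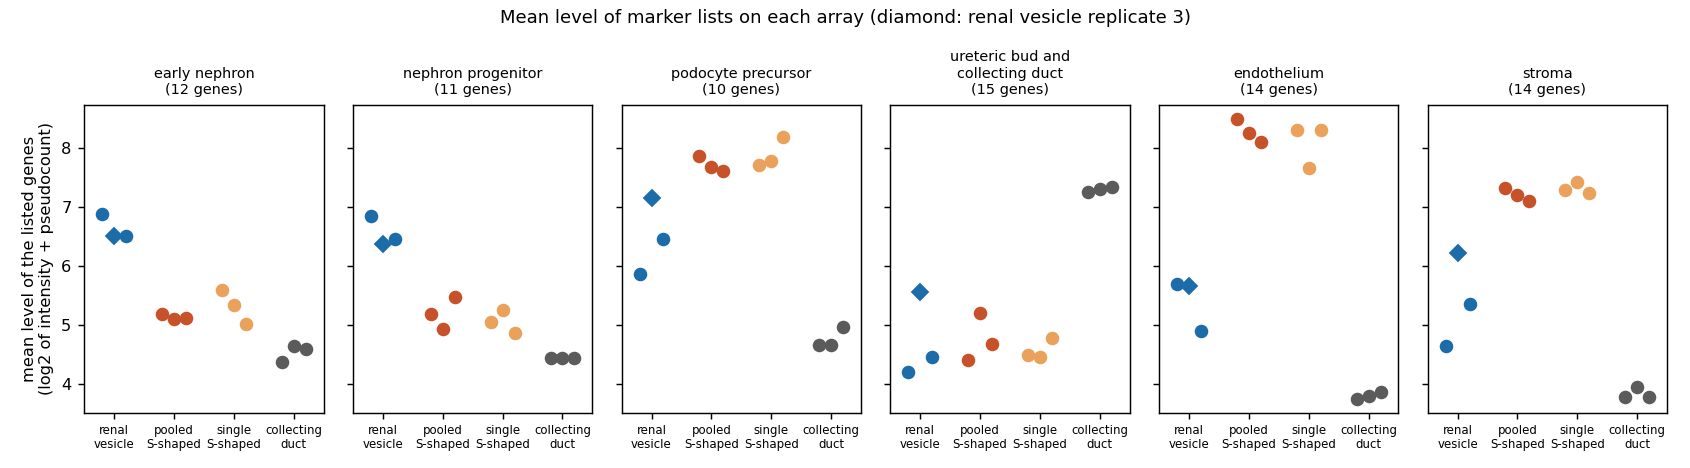
Mean level of the listed genes on each array (y axis: log2 of normalised intensity plus 7.22; x axis: the 4 groups), 1 panel per list, with renal vesicle replicate 3 as a diamond. Endothelial and stromal lists are higher in both sets of S-shaped bodies than in renal vesicles and collecting duct, and replicate 3 is the highest renal vesicle array in the podocyte, duct and stromal lists.

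The genes most like each factor over the 12 arrays were taken by Pearson correlation of levels with 6760 genes, as a description: the arrays share groups of 3 and the groups set most of each value. For Wt1 they were Cldn5 (r = 0.97), Cacna1g (0.97) and Cyp1b1 (0.96). Cldn5 had mean levels of 10.2 in renal vesicles, 10.4 in pooled and 10.5 in single S-shaped bodies and was above background on 0 of 3 collecting duct arrays. For Pax8 they were Bmp4 (0.98), Cdc23 (0.96) and Ddx1 (0.96). Bmp4, a secreted growth factor, had means of 10.3 for renal vesicles, 8.37 for pooled S-shaped bodies, 8.14 for duct and 7.60 for single S-shaped bodies, the order of Pax8 itself. For Lhx1 they were Aldh2, Hoxa11 and Cdh2, each at 0.98. Cdh2, which encodes N-cadherin, had 7.74 in renal vesicles, 5.61 in pooled and 5.42 in single S-shaped bodies, and was at the floor on all 3 duct arrays. For Pax2, whose values were all under background, the highest were Nap1l4 (0.87), Smarce1 (0.86) and Rbms1 (0.85).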

How the data were processed

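RNA of 12 samples was extracted with TRIzol and amplified in 2 rounds, per the labels' protocols. The deposited intensity values, 1 column per array, are linear with 19.5% to 25.0% at or below 0; GCOS made them, per the submitters' processing notes, and how it summarised and scaled them is not given in the sources used here. Array medians differed up to 17.8-fold, over the limit of 2, so the 12422 probe sets without 66 controls were quantile normalised, floored at 0, given a pseudocount of 7.22 (25% of the median of 28.9) and log2 transformed. No pair of arrays was identical (0 pairs).

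A fit dropped probe sets whose mean fell under its 25th percentile, leaving 9316. The tests were two-sided in limma 3.58.1 under R 4.3.3 (lmFit, eBayes with trend, Benjamini-Hochberg, call at 0.05): renal vesicle, pooled S-shaped body and collecting duct on 9 arrays, each single S-shaped body comparison on 6. The code was tested on simulated data. Of the probe sets, 10833 had 1 symbol, 396 several and 1193 none. A list gene is its brightest such probe set. Of 149 listed genes 113 were measured. Some genes stand in more than 1 list, such as Wnt4, Dll1, Uncx, Hey1, Foxc2, Tcf21 and Gata3. Named are the 4 genes and the 3 most correlated genes of each. Each list gave up to 3 called genes, by largest change in renal vesicle against duct and in pooled S-shaped body against renal vesicle. Eya1, Ldb1, Cdh4, Wnt11, Icam2, Ets1 and genes under background were added after their values were seen. So were the values of Sox18 and Postn in duct. RefSeq start windows matched 3 of the 4 genes. The 4 genes and the 11 lists were chosen with earlier results of these data known. Alternatives covered normalisation, pseudocount, filter, trend, array weights, arrays in the fit, a replicate block and leaving out each array.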

Additional observations from a re-analysis of the deposited data

How the results depend on the processing

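Wt1, Pax8 and Lhx1 in renal vesicles against duct, Wt1 and Lhx1 in pooled S-shaped bodies against duct and Pax8 in pooled S-shaped bodies against renal vesicles kept direction and call under all 18 alternatives. Changes of Wt1 and Pax8 ranged from 2.75 to 4.46 and 1.59 to 3.09 in the first comparison, those of Wt1 from 2.24 to 3.62 in the second and those of Pax8 from -3.00 to -1.76 in the third. Lhx1 against duct has only a bound, and its fitted change follows the pseudocount. On the deposited scale the probe sets called were 7268 in renal vesicle against duct, 5432 in pooled S-shaped body against renal vesicle, 8345 in single against pooled S-shaped body, 8299 in single S-shaped body against duct and 4349 against renal vesicle. There Pax2 turned to -0.63, -0.35 and -1.24 in renal vesicle against duct, single against pooled and single against duct, Pax8 to -0.17 in pooled against duct, and Wt1 to 0.43 in pooled against renal vesicle and -2.18 in single against pooled. Lhx1 in pooled against renal vesicle weakened to -0.60. Calls were gained for Pax8 (-2.54) and Lhx1 (-2.14) in single against pooled, Pax8 (-2.71) in single against duct and Wt1 (-1.75) in single against renal vesicle, and the turned values of Wt1 in single against pooled and of Pax2 in single against duct passed as well, the latter with Pax2 under background in both groups. The medians given in the report moved with that scale. Single against pooled, 37 probe sets called, gave 146 scaled to the 75th percentile, 19 with the filter at the 50th percentile, 424 with all 12 arrays in 1 fit and 1 to 72 leaving out 1 array (1 without pooled replicate 2, 72 without single replicate 5). Single against renal vesicle, 2525 called, gave 1539 to 2344 leaving out 1 array (1539 without renal vesicle replicate 2, 1583 without replicate 4). Without the trend Pax2 in pooled against renal vesicle, -0.86, passed (adjusted p = 0.0308). With array weights Pax2 in single against renal vesicle was 0.025. The cause was not tested. Leaving out 1 array gave -0.046 to 0.52 for Pax8 in pooled against duct, -0.44 to 0.072 for Lhx1 in single against pooled, -0.61 to 0.41 for Wt1 and -0.30 to 0.19 for Pax2 in single against renal vesicle. A pseudocount of 50 and list counts without renal vesicle replicate 3 were chosen after seeing the data.

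Deviations of same-numbered samples correlated at -0.08 to 0.04, so the numbers were not taken to pair the samples. With the replicate block 1383 probe sets were called in renal vesicle against duct and 1113 in single S-shaped body against renal vesicle, where Lhx1 (-1.55) had an adjusted p of 0.0817. The block changed no other call of the 4 genes. It could not be fitted for single against pooled S-shaped body or against duct, which share 1 number. Other probe sets of the 4 genes were not run, since each has 1, and genes under the 50th percentile filter gave no value there. The depth limit here is signal over background: Pax2 lies under it on all 12 arrays, Lhx1 on all duct arrays.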
